A study of Mus musculus with 24 samples.

Results

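The genes described here are all 37 genes of the mouse mitochondrial chromosome, chosen by their place on that chromosome and their mt- symbols and found by Ensembl identifier among the 41388 Ensembl genes of the count table. They comprise 13 protein-coding genes, 2 ribosomal RNA genes and 22 transfer RNA genes. Their RNA was measured by sequencing of purified mRNA from the hearts of wild type Balb/c (BALB/cAnNCrl) male mice in a course of experimental autoimmune myocarditis (EAM). EAM mice were 8 to 10 weeks old when they were first immunized, and on days 0 and 7 they received 200 µl of an emulsion of supplemented complete Freund's adjuvant (SCFA) holding 100 µg of a cardiac myosin heavy chain (MyHC-α) peptide, with pertussis toxin (PTX) on day 0. Control mice received SCFA with PBS in place of the peptide at the same times, and PTX on day 0, so adjuvant and toxin were shared by all 6 groups. Hearts were taken at D10, D15 and D21, with 4 EAM and 4 control hearts at each time. Where possible, myocardium that showed inflammation was used for the EAM samples, because some immunized mice of this strain may not develop the disease, and a piece of myocardium stands for each heart. At D10, however, the study found neither raised leucocytes in the heart nor raised cardiac troponin I in any EAM mouse. At D15 it found both raised.

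Mitochondrial DNA is a small circle that is transcribed along nearly its whole length from both strands. The long transcripts are cut at the tRNAs that lie between the other genes, which frees mRNAs, rRNAs and tRNAs, and most of the mRNAs then receive short poly(A) tails. The mRNAs encode core subunits of respiratory complexes I, III and IV and of ATP synthase (complex V), while the other subunits of these complexes, all of complex II and all proteins that copy, transcribe and translate mitochondrial DNA come from nuclear genes. Cardiomyocytes are packed with mitochondria, and a large part of the RNA of a heart is therefore of mitochondrial origin. The mRNA was purified and made into libraries with a directional NEBNext Ultra II kit, slightly modified, and no source used here says how it was captured. Purification of mRNA is meant to remove rRNAs and tRNAs, so their reads may stand for a small and selected part of those RNAs.

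A stretch of the mitochondrial chromosome has a near-perfect copy on nuclear chromosome 1, and this copy bears on which of the 37 genes can be read. In GRCm38, the nuclear pseudogenes that match it lie in chr1:24611535-24616197, on the minus strand, and match chrM:6390-11042, a stretch of 4653 bases. The copy of mt-Nd4l, a complex I gene at chrM:9877-10173 (plus strand, 297 bases, 1 coding exon), shows how close the match is. It is the pseudogene Gm10222 at chr1:24612407-24612700 (minus strand, 294 bases). Both are printed 5′ to 3′ along their own strand, and the capitals mark the only bases of mt-Nd4l beyond the end of Gm10222. These bases lie in the overlap of mt-Nd4l with mt-Nd4, whose start is matched without a mismatch by the next pseudogene, Gm28439.
mt-Nd4l: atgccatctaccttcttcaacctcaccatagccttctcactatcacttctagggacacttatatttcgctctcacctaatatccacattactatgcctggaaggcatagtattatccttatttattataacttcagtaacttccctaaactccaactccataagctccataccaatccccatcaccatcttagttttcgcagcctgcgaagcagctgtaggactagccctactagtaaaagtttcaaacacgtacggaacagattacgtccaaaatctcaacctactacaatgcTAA
Gm10222: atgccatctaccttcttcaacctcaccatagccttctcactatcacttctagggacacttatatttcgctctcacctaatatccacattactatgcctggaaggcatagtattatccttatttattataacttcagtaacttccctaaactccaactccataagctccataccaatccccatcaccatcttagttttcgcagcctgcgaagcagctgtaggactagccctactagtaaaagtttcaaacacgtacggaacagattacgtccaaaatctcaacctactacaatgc

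Of the 7 pseudogenes in this region, 6 were identical to their mitochondrial partners (mt-Nd4, mt-Nd4l, mt-Nd3, mt-Co3, mt-Atp6 and mt-Co2) over the whole aligned length. The other, Gm29216, differed from mt-Co1 by 1 base in 483, A1066T, with positions counted from 1 at the 5′ end of mt-Co1. Windows of 75 bases, the read length, that also occur in another annotated transcript made up 97.8% of mt-Nd3, 98.7% of mt-Nd4l, 99.5% of mt-Co2 and of mt-Atp6, and 99.9% of mt-Co3. They made up 39.8% of mt-Co1 and 61.5% of mt-Nd4, and no more than 5.71% of any other mRNA gene. The mRNA genes were therefore read as 3 classes: 5 outside the stretch (mt-Nd1, mt-Nd2, mt-Nd5, mt-Nd6 and mt-Cytb), 2 partly inside it (mt-Co1 and mt-Nd4) and 6 inside it (mt-Co2, mt-Atp8, mt-Atp6, mt-Co3, mt-Nd3 and mt-Nd4l). mt-Atp8 lies inside the stretch although no pseudogene is annotated over it. In the study's read assignment, reads that mapped to several loci were a category of their own, and only reads placed on a single feature were taken further. Counts of the inside genes thus rest on reads that could be placed, and are uncertain.

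3 tRNA genes that lie side by side are printed whole because they carry the result at D21. They are mt-Th (chrM:11546-11612, tRNA for histidine), mt-Ts2 (chrM:11613-11671, for serine) and mt-Tl2 (chrM:11671-11741, for leucine), all on the plus strand of GRCm38 between mt-Nd4 and mt-Nd5.
mt-Th: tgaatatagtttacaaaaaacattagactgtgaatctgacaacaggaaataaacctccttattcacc
mt-Ts2: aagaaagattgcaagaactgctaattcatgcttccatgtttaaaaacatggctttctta
mt-Tl2: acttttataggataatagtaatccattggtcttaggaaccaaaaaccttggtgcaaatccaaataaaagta

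Libraries held 15814863 to 24980864 counts (median 19469782.5). The 4 D21 EAM libraries carry the library code SIN6175 and the other 20 carry SIN6542, so that code and EAM cannot be told apart at D21. Nothing in the labels says more about how hearts of a group relate to each other, so p-values measure the spread between these hearts. In bulk tissue, fewer cells of a type and less RNA per cell cannot be told apart.

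All 37 genes had at least 1 read, and 32 had a read in every one of the 24 hearts. The other 5 were tRNA genes: mt-Tf had 6 reads in all, from 5 hearts, mt-Tg 4 reads from 4 hearts, mt-Td 16 reads from 9 hearts, mt-Tk 68 reads from 14 hearts and mt-Ts1 227 reads from 20 hearts. After the filter on low counts (at least 10 reads in at least 4 of the 8 hearts of a time point), 31 genes were tested at D10, 32 at D15 and 30 at D21. mt-Tf, mt-Td, mt-Tk, mt-Tg and mt-Tr were tested at none of the times, mt-Ts1 passed at D15, and mt-Tv passed at D10 and D15.

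In the 12 control hearts, levels per kb of gene, in CPM (counts set to the same library size, with TMM factors that adjust for a few highly expressed genes) per kb, differed widely from gene to gene. The highest median was that of mt-Co1, the catalytic subunit of complex IV, at 8228 CPM per kb. mt-Nd1 followed at 7658, mt-Cytb (cytochrome b, of complex III) at 7175, mt-Nd2 at 6584 and mt-Nd5 at 5570 CPM per kb. The ranges of neighbours in this order overlapped from heart to heart. mt-Nd6, the 1 mRNA encoded on the opposite strand, had a median of 4674 CPM per kb, above mt-Rnr2 (16S rRNA) at 3911 and mt-Rnr1 (12S rRNA) at 2516. Among tRNAs the highest was mt-Tp, for proline, at 1593 CPM per kb, followed by mt-Te, for glutamate, at 1210.

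**Figure D1:**
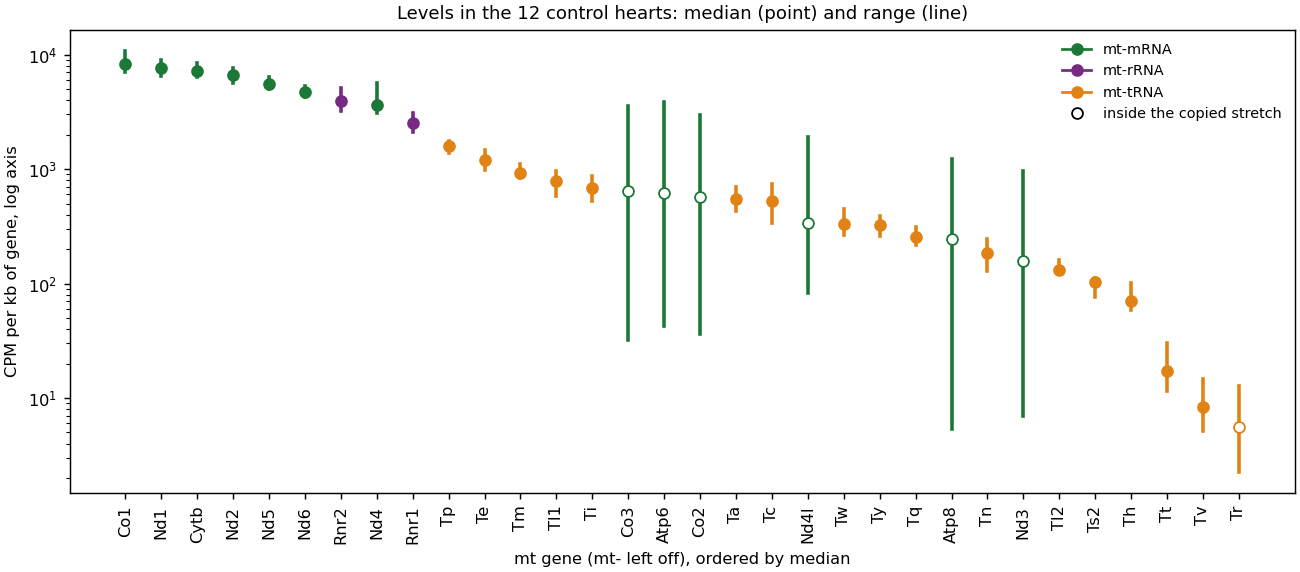
Levels in the 12 control hearts of the mt genes with a read in each of them, on a log axis of CPM per kb, with the median as a point, the range as a line and open points for genes inside the copied stretch. mt-Ts1, mt-Tk, mt-Tf, mt-Td and mt-Tg are not shown. The mRNAs outside it had short ranges (mt-Nd6 from 4242 to 5278 CPM per kb), while those inside it lay lower and ran over wide ranges (mt-Co3 from 31.95 to 3549 CPM per kb).

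The 6 mRNA genes inside the copied stretch were lower and far more variable than the rest. Their control medians ran from 158 CPM per kb (mt-Nd3, of complex I) to 647 (mt-Co3, of complex IV), below those of the other 7 mRNA genes. Within a group of 4 hearts the highest level was 3.05 to 20.8 times the lowest in D21 controls, 8.004 to 77.7 times in D10 controls, 15.8 to 230 times in D15 controls and 59.3 to 253 times in D21 EAM hearts. In D10 EAM hearts these folds were 2.38 to 3.60 and in D15 EAM hearts 2.04 to 3.57. For the 5 mRNA genes outside the stretch, no group exceeded 2.04. The inside genes also moved together between hearts: D21 EAM heart 1 was the lowest of all 24 hearts in 6 of 6, and D15 control heart 3 the highest in 5 of 6.

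The values of mt-Co3 show the scale of this. In D15 controls it was at 81.7, 539.8, 2783 and 849.7 CPM, and in D15 EAM hearts at 1101, 1686, 1115 and 580.4 CPM. In D21 controls it was at 43.3, 475, 137 and 25.05 CPM, and in D21 EAM hearts at 11.7, 800.2, 1942 and 764 CPM. Hearts of both kinds overlapped at both times, and with TMM scaling the fold changes of these 6 genes carry standard errors too wide to give a direction. The division of the 13 mRNAs by the copied stretch was made after these values were seen. The part of the copy in the low levels was not tested.

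The pseudogenes themselves drew few reads. The most read was Gm28438, the copy of mt-Nd3, with 479 to 2270 counts a library. At D15, 6 of the 7 were lower in EAM hearts at a false discovery rate (FDR, over all genes tested) under 0.01 in edgeR, where 31.1% of all genes tested were. Gm10925, the copy of mt-Atp6, fell by 1.05 on the log2 scale (SE 0.12, FDR 4.07e-05). Gm10222 fell by 2.06, Gm29216 by 1.99, Gm28439 (of mt-Nd4) by 1.43, Gm28438 by 1.41 and Gm28437 (of mt-Co3) by 1.11, with FDR from 0.00104 to 0.00871. The other, Gm28661, the copy of mt-Co2, had a log2 fold change of 0.83 (SE 0.84, FDR 0.393), with 1832 counts in D15 EAM heart 3 and 110 to 278 in the other EAM hearts of that time. None of the 7 passed at D10 or D21.

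The share of all counts that fell on the 37 genes was nearly the same in D10 and D15 controls and much lower in D15 EAM hearts. At D10 controls held 6.18%, 6.04%, 6.32% and 7.69%, and EAM hearts 5.04%, 6.23%, 5.73% and 6.11%, which overlap. At D15 controls held 6.10%, 6.85%, 7.14% and 6.55%, and EAM hearts 3.79%, 3.19%, 4.31% and 3.19%, with no overlap. The D15 means were 6.66% ± 0.444 (SD, n = 4) in controls and 3.62% ± 0.539 (SD, n = 4) in EAM hearts, 1.84-fold lower. At D21 controls held 5.45%, 5.79%, 5.45% and 5.54%, and EAM hearts 3.91%, 5.50%, 6.77% and 4.34%, so that EAM hearts lay on both sides of the controls.

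The first comparison asked whether mitochondrial RNAs differed at D10, when the heart is at an early stage of the disease. None of the 31 genes tested passed an FDR under 0.01 with a 2-fold change in edgeR's quasi-likelihood test, nor in DESeq2 or limma-voom. An unadjusted p under 0.05 was reached by 4 of 31, no larger a share than the 15.3% of all genes. Over all 15029 genes tested 0% were called lower, and the lowest FDR of any gene was 0.254. Fitted log2 fold changes of the 13 mRNAs had a median of -0.22, against -0.01 over all genes, and 30 of 31 mt genes were below 0, where 51.5% of all genes were. That median turned to 0.043 with libraries scaled to cardiomyocyte markers, and without 1 heart it ran from -0.40 (without EAM heart 4) to -0.019 (without control heart 4). Other lists were shifted as well: 18 of 18 cardiomyocyte markers were below 0 with a median of -0.21, and 71 of 75 nuclear subunit genes of complexes I, III, IV and V with a median of -0.11. Leucocyte markers had a median of 1.38, with an unadjusted p under 0.05 in 14 of 14 and an FDR under 0.01 in 0. The part of these in the mt values was not tested. EAM hearts lay wholly below controls for mt-Nd5, a complex I subunit, and mt-Tm, the tRNA for methionine, where 3.75% of all genes tested did so. mt-Tm was at 63.4, 60.5, 63.8 and 76.1 CPM in controls and 43.1, 46.4, 49.1 and 60.1 CPM in EAM hearts, a log2 fold change of -0.42 (SE 0.12, FDR 0.328). D10 EAM heart 1, which had the lowest mt share of its group, also had the lowest cardiomyocyte marker share of its group (3.76% of counts) and the highest leucocyte marker share (0.237%).

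At D15, 22 of 32 mt genes tested were at least 2-fold lower in EAM hearts at an FDR under 0.01 with TMM scaling, and none of these 22 when libraries were scaled to cardiomyocyte markers. None was higher with TMM scaling, where 18.1% of all genes were. Over all 15693 genes tested 12.9% were lower by that rule. Without the fold limit 24 of 32 were lower, where 31.1% of all genes were. The 24 comprised both rRNAs, 7 of 13 mRNAs and 15 of 17 tRNAs. The 8 that did not pass were the 6 mRNAs inside the copied stretch, mt-Ts1, a tRNA gene inside it, and mt-Tv, the tRNA for valine. Apart from the genes inside the stretch, every gene tested (25 of 25) had all 4 EAM hearts below all 4 controls, where 35.9% of all genes did. Of these genes mt-Tt and mt-Tv did not reach the read minimum in 4 EAM hearts, and the same holds for mt-Ts1 in controls. Without these 3, 21 of 29 were called and 23 of 23 lay apart.

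The rRNAs, which form the cores of the mitochondrial ribosome, had the largest fitted falls among the long genes with TMM scaling. mt-Rnr1, the 12S rRNA of the small subunit, was at 2339, 2508, 2406 and 2534 CPM in D15 controls and 906, 533, 1308 and 768 CPM in EAM hearts. It fell by 1.44 on the log2 scale (SE 0.24, FDR 0.000438). mt-Rnr2, the 16S rRNA of the large subunit, was at 6078, 6329, 6144 and 6462 CPM in controls and 2508, 1365, 3293 and 1948 CPM in EAM hearts. It fell by 1.42 (SE 0.25, FDR 0.000643). EAM heart 2 was lowest and EAM heart 3 highest of the EAM hearts for both, and the groups were well apart.

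With TMM scaling, though not with scaling to cardiomyocyte markers, all 5 mRNAs outside the copied stretch fell at D15 by more than 2-fold. With libraries scaled to total counts, the calls of mt-Nd1 and mt-Cytb were lost. Of the complex I subunits, mt-Nd1 was at 7227, 8196, 7464 and 7846 CPM in controls and 3573, 2609, 4337 and 3243 CPM in EAM hearts, and fell by 1.12 on the log2 scale (SE 0.18, FDR 0.000379). mt-Nd2 fell by 1.19 (SE 0.20, FDR 0.000444) and mt-Nd5 by 1.24 (SE 0.23, FDR 0.000786). Both encode membrane-arm subunits of complex I. mt-Nd6, which is read from the opposite strand, was at 2540.4, 2702, 2392 and 2543 CPM in controls and 1169, 798, 1481 and 1027 CPM in EAM hearts, and fell by 1.15 (SE 0.18, FDR 0.000309). mt-Nd6 lies across from other transcripts, and its gene overlaps that of mt-Nd5 by 14 bases, and with the strand setting of the counting not stated its reads and those of RNA from the other strand cannot be told apart. The complex III mRNA mt-Cytb was at 8224, 9246, 8191 and 8519 CPM in controls and 4208, 2971, 5243 and 3779 CPM in EAM hearts, and fell by 1.04 (SE 0.20, FDR 0.000939). The order of EAM hearts was the same for mt-Nd1, mt-Nd6 and mt-Cytb, with heart 3 highest, then hearts 1, 4 and 2.

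Both mRNAs partly inside the stretch passed the FDR limit at D15 and stayed under a 2-fold change. mt-Co1, of complex IV, fell by 0.94 on the log2 scale (SE 0.18, FDR 0.00109) and mt-Nd4, of complex I, by 0.91 (SE 0.18, FDR 0.00137). The inside genes had log2 fold changes from -0.20 (mt-Nd4l, SE 0.69) through -0.04 for mt-Atp6 and mt-Nd3, 0.06 for mt-Atp8 and 0.11 for mt-Co3 to 0.32 (mt-Co2, SE 0.75), with FDR from 0.717 to 0.965. mt-Atp6 and mt-Atp8 are the only mitochondrial genes of complex V, so these data give no direction for the mitochondrial part of ATP synthase. The median over all 13 mRNAs was -0.91, against 0.02 over all genes.

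The tRNAs that passed fell by 1.27 to 1.94 on the log2 scale at D15 with TMM scaling. mt-Tt, for threonine, was at 1.20, 2.01, 0.777 and 1.06 CPM in controls and 0.333, 0.280, 0.464 and 0.193 CPM in EAM hearts, a fall of 1.94 (SE 0.37, FDR 0.000962). It rests on 5 to 11 reads in EAM hearts and passed the filter through the controls. mt-Tq, for glutamine, fell by 1.93 (SE 0.41, FDR 0.0021). mt-Tp, the most read tRNA per kb, was at 102, 106, 107 and 109 CPM in controls and 44.6, 32.3, 59.7 and 35.0 CPM in EAM hearts. It fell by 1.27 (SE 0.17, FDR 0.000115), the smallest fall of the 15. mt-Tl2 had the lowest FDR of any mt gene, with 11.5, 10.6, 9.27 and 11.0 CPM in controls, 2.33, 2.45, 4.81 and 3.17 CPM in EAM hearts and a fall of 1.70 (SE 0.22, FDR 8.21e-05). mt-Tv had a log2 fold change of -1.52 (SE 0.47, FDR 0.0145), and mt-Ts1 of 0.05 (SE 0.70, FDR 0.949).

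The other tRNAs that passed at D15 were mt-Tw (-1.78), mt-Ti (-1.76), mt-Ts2 (-1.73), mt-Tl1 (-1.68), mt-Tc (-1.56), mt-Ta (-1.53), mt-Th (-1.51), mt-Tm (-1.43), mt-Ty (-1.43), mt-Tn (-1.40) and mt-Te (-1.37), each with its log2 fold change. Both strands were represented. Of the tRNA genes outside the stretch, the 9 tested on the plus strand had a median of -1.70 and the 7 on the minus strand a median of -1.43. The mRNA purification and the short length of these genes limit what their reads stand for.

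These falls are relative to the bulk of the RNA in each library, and their direction depends on what the counts are set against. With libraries scaled to the sum of cardiomyocyte marker counts, the median over all genes at D15 moved from 0.02 to 1.38, and the 5 mRNAs outside the stretch had a median of 0.13, with mt-Nd1 at 0.17 and mt-Cytb at 0.24. The rRNAs then had a median of -0.19 and the tRNAs of -0.33, and of the 22 calls none was kept. This scaling moves all genes of a library alike, so it bears on the direction of a change and not on a gene's place relative to the median of all genes. mt-Co2, inside the stretch, was called higher with the cardiomyocyte scaling.

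**Figure D2:**
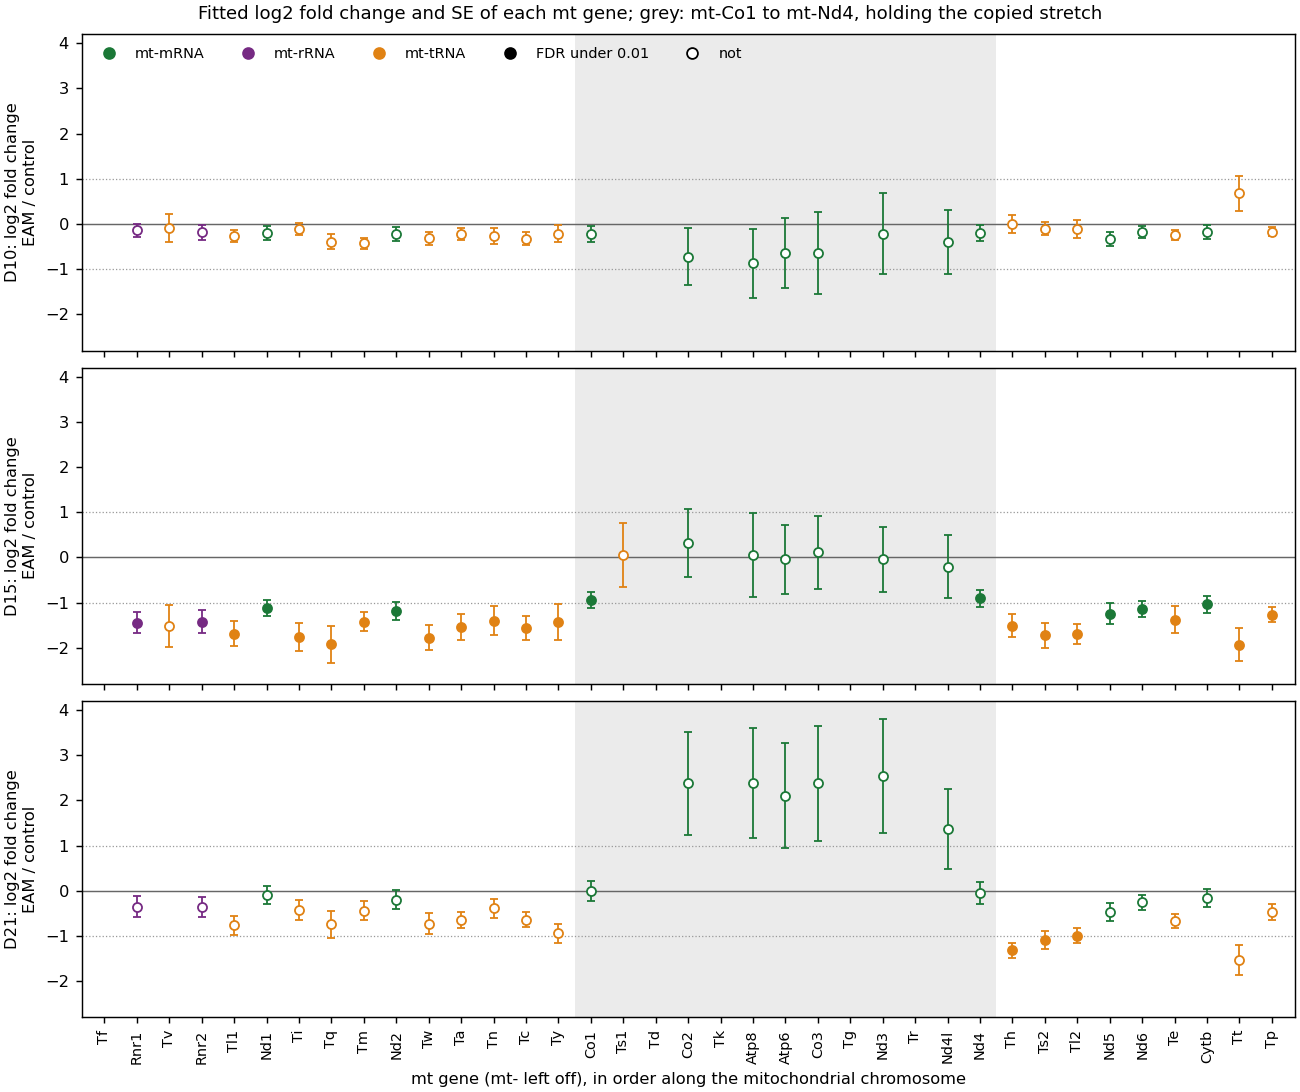
Fitted log2 fold change of EAM against control for each mt gene in its order along the chromosome, at D10, D15 and D21, with bars of 1 SE, filled points for FDR under 0.01 and grey for mt-Co1 to mt-Nd4. Genes outside the grey area lay between -1.94 and -1.04 at D15 and genes inside it had bars up to 1.28 at D21, all with TMM scaling (scaled to cardiomyocyte markers, the 5 D15 mRNAs outside it had a median of 0.13).

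Cell type markers moved with the mt genes at D15. Cardiomyocyte markers made up 5.53% to 6.10% of counts in D15 controls and 1.78% to 3.91% in EAM hearts, and 17 of 18 listed markers were lower at an FDR under 0.01, where 31.1% of all genes were. Myh6, cardiac α-myosin heavy chain, had a log2 fold change of -1.38 (SE 0.41, FDR 0.0121), and Tnnt2, cardiac troponin T, fell by 0.82 (SE 0.15, FDR 0.000836). Leucocyte markers made up 0.025% to 0.0303% of counts in controls and 0.294% to 0.389% in EAM hearts, and 14 of 14 tested were at least 2-fold higher, where 18.1% of all genes were. Ptprc, which encodes CD45, rose by 3.98 (SE 0.12, FDR 1.43e-08), and Cd68, of macrophages, by 3.59 (SE 0.28, FDR 4.01e-06). The part of these markers' cells in the falls of the mt genes was not tested.

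The summed level of each list is given as its range over the 4 controls and then over the 4 EAM hearts of a time. At D15 the sums were, for macrophage and monocyte markers 695 to 811 CPM and 3807 to 5442 CPM, T cell markers 15.4 to 16.9 CPM and 86.5 to 113 CPM, B cell markers 4.42 to 8.03 CPM and 9.71 to 36.6 CPM and neutrophil markers 17.5 to 86.4 CPM and 459.8 to 1028 CPM. They were, for fibroblast markers 2296 to 2853 CPM and 8583 to 17201 CPM, endothelial markers 1285 to 1670.0 CPM and 878 to 968 CPM, erythroid markers 136 to 265 CPM and 34.0 to 176 CPM and adipocyte markers 30.3 to 63.8 CPM and 36.8 to 59.9 CPM. The sums of the immune and fibroblast lists were higher in all D15 EAM hearts, endothelial sums were lower, and erythroid and adipocyte sums overlapped. Of the 10 fibroblast markers only 4 were higher at an FDR under 0.01, where 33.2% of all genes were, and 2 were below 0, with a median log2 fold change of 0.51 and a highest of 4.45. No list had a member without a read in a D15 group.

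Set against nuclear subunit genes of complexes I, III, IV and V, the mRNAs outside the stretch had ratios that overlapped between groups. These mRNAs encode subunits of complexes I and III only, and a ratio to nuclear subunits of complexes I and III alone was not tested. The summed counts of these mRNAs were 0.929 to 1.01 times those of the nuclear subunits in D15 controls and 0.900 to 1.01 times in EAM hearts. Against cardiomyocyte markers the ratio was 0.573 to 0.654 in controls and 0.570 to 0.743 in EAM hearts. Both pairs of ranges overlapped, which does not show that the ratios were equal. With all 13 mRNAs, the mean log2 ratio to nuclear subunits was 0.65 ± 0.12 (SD, n = 4) in controls and 0.84 ± 0.15 (SD, n = 4) in EAM hearts, with the variable inside genes in the sum.

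The rRNAs and tRNAs were lower at D15 relative to the mRNAs outside the stretch as well. The rRNAs amounted to 22.7% to 24.6% of the counts of those 5 mRNAs in D15 controls and to 16.5% to 21.8% in EAM hearts. The tRNAs amounted to 1.42% to 1.53% in controls and to 0.916% to 1.37% in EAM hearts. Neither pair of ranges overlapped. Duplicate reads were removed before counting, which can lower densely covered genes more than others. The 5 mRNAs had medians of 83.7 (mt-Nd6) to 136 (mt-Nd1) counts per base over all hearts. The rRNAs had 44.4 and 69.0, and the highest of the tRNAs, mt-Tp, had 27.9. The part of duplicate removal in the shares and ratios was not tested. mt-Nd6 alone made up 6.82% to 7.24% of the 5-gene sum in controls and 6.95% to 7.03% in EAM hearts, with overlap. The shares of mt-Nd1, mt-Nd2 and mt-Nd5 overlapped as well. mt-Cytb did not, with 23.3% to 23.7% in controls and 24.9% to 25.9% in EAM hearts.

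**Figure D3:**
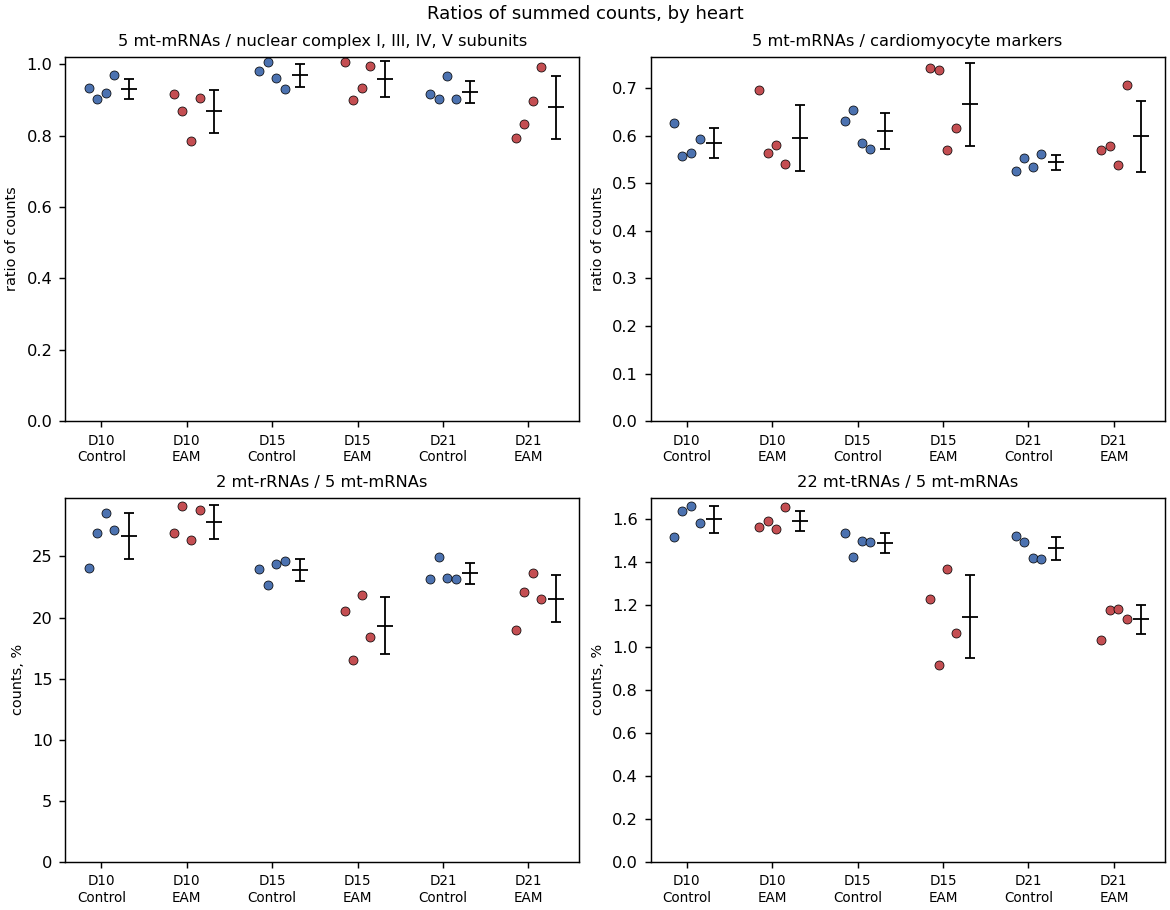
Ratios of summed counts in each heart (points) with the mean ± SD of 4 hearts, from an axis at 0: the 5 mRNAs outside the copied stretch over nuclear subunits and over cardiomyocyte markers, and rRNAs and tRNAs as a percent of those mRNAs. At D15 the upper ratios overlapped between groups (0.929 to 1.01 against 0.900 to 1.01 for nuclear subunits), while the rRNA percent was 22.7 to 24.6 in controls and 16.5 to 21.8 in EAM hearts.

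Nuclear genes whose products join the mt-encoded subunits also fell at D15 with TMM scaling. Of 36 nuclear complex I genes tested, 36 were lower at an FDR under 0.01, where 31.1% of all genes tested were, and 33 by at least 2-fold, where 12.9% were, with a median log2 fold change of -1.23. Counts of the lists that follow stand beside the same shares. Among them Ndufs1 fell by 1.38, Ndufs7 by 1.38, Ndufab1 by 1.35 and Ndufa10 by 1.35. Of complex III, 9 of 9 were lower (7 by 2-fold, median -1.22), among them the cytochrome c1 gene Cyc1 (-1.34), the Rieske protein gene Uqcrfs1 (-1.32), Uqcrc1 (-1.31) and Uqcrc2 (-1.25). Complex II, which has no mt-encoded subunit, had 4 of 4 lower by 2-fold with a median of -1.22, in Sdha (-1.28), Sdhb (-1.26), Sdhc (-1.18) and Sdhd (-1.06).

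Complexes IV and V followed with exceptions. Of 14 complex IV genes 12 were lower (6 by 2-fold, median -0.996), led by the heart and muscle forms Cox7a1 (-1.67), Cox8b (-1.37) and Cox6a2 (-1.15) and by Ndufa4 (-1.13). Cox6a1, the form of subunit 6a found outside muscle, rose by 0.33 (SE 0.07, FDR 0.00138), and was singled out after its value was seen. Of 16 complex V genes 15 were lower (11 by 2-fold, median -1.06), among them Atp5g1 (-1.35), Atp5g3 (-1.14), Atp5c1 (-1.14) and Atp5h (-1.14). The 5 mRNAs outside the copied stretch had a median of -1.15, inside the span of these medians.

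The nuclear genes that copy, transcribe, process and translate mitochondrial DNA and RNA also fell at D15 with TMM scaling. Over 4 lists, 99 of 122 tested were lower at an FDR under 0.01, where 31.1% of all genes were, and 37 by 2-fold, where 12.9% were. At the same FDR 5 were higher, where 33.2% of all genes were, and the median was -0.80. In mitochondrial DNA transcription and copying, 18 of 25 were lower and 3 higher. Polrmt, the mitochondrial RNA polymerase, fell by 0.87 on the log2 scale (SE 0.10, FDR 5.03e-05), Tfam, which packs the DNA and opens promoters, by 0.95 (SE 0.08, FDR 5.28e-06), and Twnk, the replicative helicase, by 1.08. The largest falls were in Mterf2 (-1.83), of the mTERF family, Endog (-1.35), a mitochondrial nuclease, the elongation factor gene Tefm (-1.26) and the initiation factor gene Tfb2m (-1.18). Those that rose were Primpol (0.78), a primase-polymerase, Rnaseh1 (0.49), which removes RNA from RNA-DNA hybrids, and Tk2 (0.43), the mitochondrial thymidine kinase. They were named after their values were seen.

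Of 38 genes of mitochondrial RNA processing and stability, 28 were lower (12 by 2-fold, median -0.73), and Rexo2, an oligoribonuclease, was higher (0.30). Lrpprc and Slirp, partners that hold mt-mRNAs stable, fell by 1.004 (SE 0.19, FDR 0.00113) and 0.50 (SE 0.06, FDR 7.55e-05). Elac2, which cuts the 3′ ends of tRNAs, had a log2 fold change of -0.12 (SE 0.06, FDR 0.0916), and Pnpt1, a polynucleotide phosphorylase, fell by 0.40 (SE 0.11, FDR 0.00694). Ptcd3 (-1.43), a protein of the small ribosomal subunit, Fastk (-1.39), which the mt-Nd6 mRNA needs, Mettl15 (-1.31), a 12S rRNA methyltransferase, and Trmt5 (-1.24), a tRNA methyltransferase, fell most.

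Translation factors and insertion factors had 34 of 37 lower (13 by 2-fold, median -0.94), led by Taco1 (-1.51), an activator of mt-Co1 translation, the complex I assembly factor gene Ndufaf1 (-1.37), the initiation factor gene Mtif2 (-1.36) and Cox10 (-1.32), of heme A synthesis. Tufm, the elongation factor EF-Tu, fell by 1.16 (SE 0.10, FDR 7.02e-06). Of 22 genes that charge mitochondrial tRNAs 19 were lower (6 by 2-fold, median -0.74), led by Qrsl1 (-1.44), Cars2 (-1.20), Aars2 (-1.19) and Vars2 (-1.15). Gars, whose product also serves the cytosol, was higher (0.26).

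**Figure D4:**
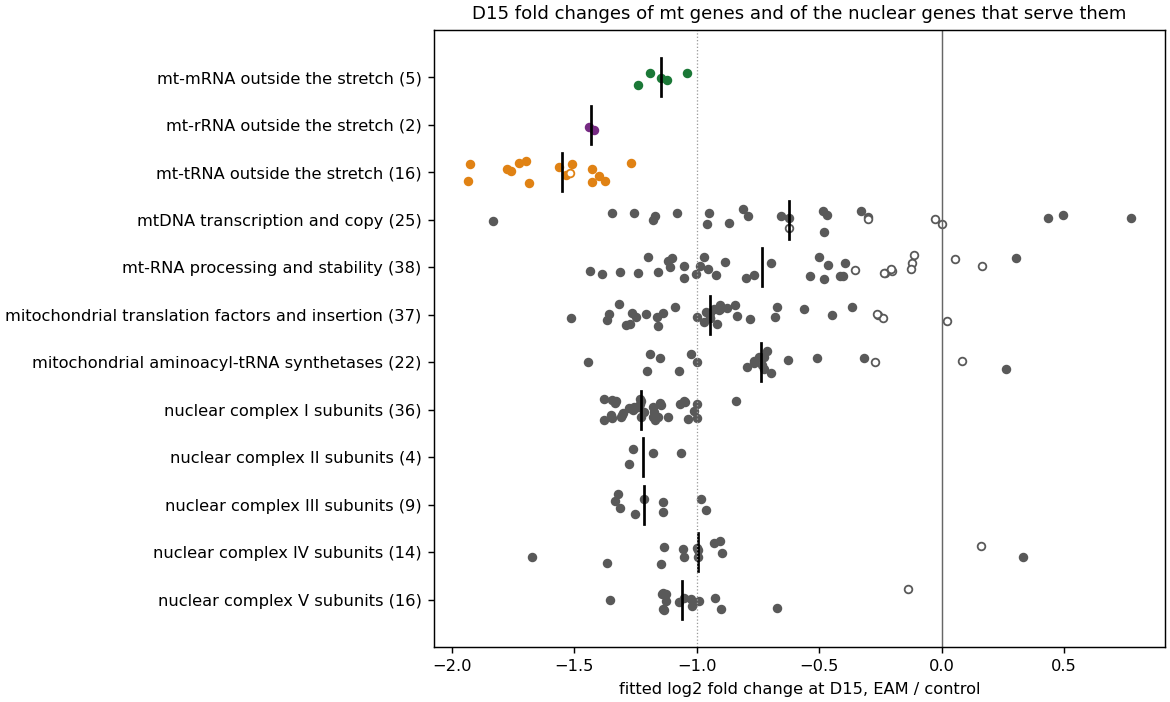
Fitted log2 fold change of EAM against control at D15 for mt genes outside the copied stretch and for each list of nuclear genes, with 1 point a gene, open where the FDR was 0.01 or above, and a bar at the list's median. Medians were -1.15 for the 5 mRNAs and -1.43 for the 2 rRNAs, beside -1.23 for nuclear complex I subunits, while mitochondrial DNA transcription and copying had -0.62 (scaled to cardiomyocyte markers the 5 mRNAs had a median of 0.13).

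At D21 the rRNAs and 12 of the 13 mRNAs of EAM hearts overlapped those of controls, mt-Nd5 lay wholly below them, and a few tRNAs were called lower. Of 30 mt genes tested 2 were lower by at least 2-fold at an FDR under 0.01, mt-Th and mt-Ts2, where 1.16% of all 15266 genes were. Both calls were lost with libraries scaled to the cardiomyocyte marker sum or to the mt-mRNA sum. With the replicate number as a block 1 of them, mt-Th, was kept. Without the fold limit mt-Tl2 was the third, with 3.1% of all genes lower by that rule, and these 3 were 9 in DESeq2, 9 in edgeR's likelihood ratio test and 2 (mt-Th and mt-Tl2) in limma-voom. An unadjusted p under 0.05 was reached by 12 of 30, a smaller share than the 46.4% of all genes. All 12 were among the 15 tRNAs tested, and no mRNA or rRNA reached it. mt-Tt, among the 12, passed the filter on low counts only through the controls.

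The 3 genes are the neighbours whose sequences are given with the opening. mt-Th was at 5.44, 5.91, 4.73 and 4.56 CPM in D21 controls and 1.63, 2.18, 2.21 and 2.15 CPM in EAM hearts, and fell by 1.32 on the log2 scale (SE 0.17, FDR 0.00473). mt-Ts2 was at 6.05, 5.62, 5.39 and 4.46 CPM in controls and 1.68, 3.05, 2.74 and 2.54 CPM in EAM hearts, and fell by 1.09 (SE 0.20, FDR 0.00854). mt-Tl2 was at 10.3, 9.56, 8.80 and 8.96 CPM in controls and 3.45, 4.63, 5.82 and 4.80 CPM in EAM hearts, and fell by 0.99 (SE 0.16, FDR 0.00653). In each of the 3, EAM heart 1 was lowest and the groups did not overlap. Both calls lay near the limits: without any 1 of the 4 controls, EAM heart 1 or EAM heart 2, 0 mt genes were called, and without EAM heart 3, 6 were. The fitted changes moved less. Without 1 heart, mt-Th had log2 fold changes of -1.38 to -1.21 (FDR 0.00118 to 0.0274), mt-Ts2 of -1.19 to -0.93 (FDR 0.00495 to 0.0337) and mt-Tl2 of -1.11 to -0.87 (FDR 0.00132 to 0.0285).

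Of the 12 other tRNAs tested at D21, which did not pass, 8 had all EAM hearts below all controls, as had mt-Nd5 of the 13 mRNAs, where 18.7% of all genes tested did. Of the 8, mt-Tt passed the filter on low counts only through the controls (20 to 27 reads, against 3 to 9 in EAM hearts), which leaves 7 of 11. mt-Ty, for tyrosine, had a log2 fold change of -0.94 (SE 0.21, FDR 0.0133) and mt-Te of -0.66 (SE 0.16, FDR 0.0169). The tRNAs amounted to 1.41% to 1.52% of the counts of the 5 mRNAs outside the stretch in D21 controls and to 1.04% to 1.18% in EAM hearts, with no overlap. At D10 the same percent was 1.52 to 1.66 in controls and 1.55 to 1.66 in EAM hearts. The D21 difference cannot be told apart from the library code.

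The longer RNAs showed no called difference at D21. mt-Nd5 was at 9214, 9586, 9088 and 9361 CPM in controls and 5311, 7449, 8607 and 5312 CPM in EAM hearts, a log2 fold change of -0.47 (SE 0.21, FDR 0.11). mt-Rnr1 had -0.35 (SE 0.24, FDR 0.266) and mt-Rnr2 -0.35 (SE 0.23, FDR 0.243). mt-Nd1 had -0.09, mt-Nd2 -0.20, mt-Nd6 -0.25 and mt-Cytb -0.15, mt-Nd4 had -0.04 and mt-Co1 0.00. The inside genes had 1.36 to 2.54 with SE from 0.89 to 1.28 and FDR from 0.134 to 0.252. EAM heart 3 lay above every D21 control for mt-Nd1 at 8071 CPM, against 6289 to 6784 CPM in controls, while EAM hearts 1 and 4 lay below them at 4873 and 4898 CPM.

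Cell markers were as uneven in D21 EAM hearts. Cardiomyocyte markers made up 3.16% to 6.11% of their counts, against 5.65% to 5.90% in controls, and 0 of 18 were lower at an FDR under 0.01 in edgeR, where 3.1% of all genes were, with an unadjusted p under 0.05 in 2. Leucocyte markers had 14 of 14 tested higher by 2-fold, where 4.13% of all genes were. Of the 75 nuclear subunit genes of complexes I, III, IV and V, 0 were lower at an FDR under 0.01 and 1 was higher, where 3.1% and 4.71% of all genes were, and 3 had an unadjusted p under 0.05. Of 122 genes of the expression machinery 1 was lower. The part of this in the mt values was not tested.

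Whether the EAM effect itself differed between times was tested in 1 fit of all 24 hearts with 33 mt genes. The effect at D15 was lower than at D10 by at least 2-fold for 16 of 33, where 7.35% of all 16318 genes were, and for 19 without the fold limit, where 16.7% were. mt-Tt had -2.67 (SE 0.54, FDR 0.00204), on few reads, from a log2 fold change of 0.68 at D10. mt-Tl2 had -1.64 (SE 0.29, FDR 0.00171), mt-Rnr1 -1.35 (SE 0.32, FDR 0.00342), mt-Nd6 -1.03 (SE 0.23, FDR 0.00255) and mt-Nd1 -0.96 (SE 0.24, FDR 0.00408).

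The effect at D21 was higher than at D15 for 5 of 33 at an FDR under 0.01, where 8.47% of all genes were, and by at least 2-fold for 2, where 2.74% were. The 5 were 11 in DESeq2 and 10 in the likelihood ratio test, and became 0 without D21 control heart 3 or D21 EAM heart 2, and 1 or 2 without any other D15 or D21 heart except the following 3. They became 9 without D21 EAM heart 1, 10 without D21 EAM heart 4 and 17 without D15 EAM heart 3. All 5 were mRNAs: mt-Nd1 with a difference of 1.06 (SE 0.24, FDR 0.00407), mt-Nd2 with 1.02 (SE 0.26, FDR 0.00742), mt-Co1 with 0.96 (SE 0.24, FDR 0.00676), mt-Nd6 with 0.92 (SE 0.23, FDR 0.00677) and mt-Cytb with 0.91 (SE 0.24, FDR 0.00917). The rRNAs had 1.11 (FDR 0.0151) and 1.09 (FDR 0.015). The 3 tRNAs called or past the FDR limit at D21 had differences of 0.20 for mt-Th (SE 0.31, FDR 0.639), 0.65 for mt-Ts2 (SE 0.32, FDR 0.128) and 0.72 for mt-Tl2 (SE 0.29, FDR 0.0715). None of these 3 passed, and the 16 tRNAs outside the stretch had a median of 0.86. The 2-fold count also changed with the hearts left out, with both differences close to 2-fold and to the FDR limit: without D15 EAM heart 2, D21 control heart 3 or D21 EAM heart 2 or 3 it was 0, and without D15 EAM heart 1 or 4, D15 control heart 2, 3 or 4 or D21 control heart 1, 2 or 4 it was 1. Without D10 EAM heart 1 it was 3, without D21 EAM heart 1 or 4 it was 8, and without D15 EAM heart 3 it was 15. Over the 24 fits without 1 heart, the difference ran from 0.90 to 1.19 for mt-Nd1 (FDR 0.000917 to 0.0103) and from 0.84 to 1.18 for mt-Nd2 (FDR 0.00189 to 0.018). The D15 EAM hearts enter both differences, and the D21 EAM hearts carry their own library code.

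Among control hearts, 0 of 31 mt genes were lower at D15 than at D10 at an FDR under 0.01 in edgeR, with 0.0914% of all genes lower, and 4 had an unadjusted p under 0.05, where 16.8% of all genes did. At D21, 5 of 31 were lower than at D10, where 0.986% of all genes were, and none by 2-fold. They were mt-Rnr2 (-0.40 on the log2 scale) and the tRNAs mt-Tl1 (-0.45), mt-Ti (-0.51), mt-Tn (-0.51) and mt-Tc (-0.63). This count was 0 without D10 control heart 3 or D21 control heart 3, 2 without D10 control heart 2, and 3 without D10 control heart 4, D15 control heart 2 or 3, or D21 control heart 1 or 4. DESeq2 gave 12 and the replicate block 3. The control mt share was 6.04% to 7.69% at D10 and 5.45% to 5.79% at D21, so the drift of controls was in the same direction as the EAM difference and smaller than that at D15.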

How the data were processed

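RNA from the myocardium of 24 mice was sequenced as 75-base read pairs after purification of mRNA with a directional kit (NEBNext Ultra II). The authors aligned the reads to GRCm38 with HISAT2 2.0.4, removed duplicates with Picard, which can lower densely covered genes, and deposited raw counts per gene from featureCounts. Reads that mapped to several loci or spanned several features were set apart, per the study's supplement, and no source used here gives the strand setting. Hearts were grouped by their labels, and the members and gene lists were chosen with earlier results of these data known.

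The main test was that of edgeR 4.0.16 in R 4.3.3 (glmQLFit, glmQLFTest, TMM), with DESeq2 1.42.0 and limma 3.58.1 as alternatives. EAM and control were compared time by time over genes that reached 10 reads in 4 or more hearts, with Benjamini-Hochberg FDR over all genes kept. Calls needed an FDR under 0.01 and a 2-fold change. Differences between times came from 1 fit of all 24 hearts. The fits were tested on simulated data. Shares and ratios have no p, and n is 4 hearts a group. CPM used TMM factors of all 24 hearts. Copies were found by exact 75-base windows among GENCODE M21 transcripts, not in the genome, which was not used here. Named genes were every tested mt gene, the up to 4 nuclear genes of each list with the largest called D15 change, and a few fixed genes. Cox6a1, Primpol, Rnaseh1, Tk2, Rexo2 and Gars, which were higher at D15, were added after their values were seen. Alternatives were another normalization, no filter, other scalings, a replicate block and leaving out each heart. Tables used Python 3.11.15 with pandas 2.3.3 and numpy 2.4.6, and plots matplotlib 3.10.9.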

Additional observations from a re-analysis of the deposited data

Results flagged for a closer look

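A check for a heart standing far from the other 3 of its group was run on 276 groups of 4 values of the mt genes and their sums, and 16 were marked, by the gap to the nearest heart relative to the range of the group. Chance marks about 1 in 20 groups, which is near the share marked here, and the values share reads and are not independent. D10 control heart 4 stood apart most often. Its mt-mRNA share was 6.63% of counts, its log2 ratio of mt-mRNA to nuclear subunits was 0.80, and it had 2013 CPM of mt-Co2, 7809 CPM of mt-Nd4 and 0.859 CPM of mt-Tr, each the highest of its group. mt-Co2 and mt-Tr lie inside the copied stretch and mt-Nd4 lies partly inside it.

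D10 EAM heart 1 had the highest log2 ratio of mt-mRNA to cardiomyocyte markers of its group (0.19), and the lowest mt-Ts2 (4.55 CPM) and mt-Te (61.1 CPM). D21 EAM heart 1 had the lowest mt-Th (1.63 CPM) and the lowest mt-Tt (0.148 CPM) of its group. Among the tRNAs, mt-Ts2 stood apart in D10 control heart 2 (5.33 CPM) and in D15 EAM heart 3 (3.21 CPM), mt-Tl2 in D10 control heart 3 (10.8 CPM), mt-Tt in D10 control heart 1 (1.60 CPM) and mt-Ts1 in D21 control heart 2 (0.432 CPM). D21 control heart 2 also had the highest rRNA percent per 5 mt-mRNAs of its group (24.9%).

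The EAM effect differed between D15 and D10 at an FDR under 0.01 (edgeR) for 19 mt genes, all lower at D15. The differences on the log2 scale were -2.67 for mt-Tt (on few reads), -1.69 for mt-Ti, -1.66 for mt-Ts2, -1.64 for mt-Tl2, -1.55 for mt-Th, -1.50 for mt-Tw, -1.46 for mt-Tl1, -1.36 for mt-Ta, -1.29 for mt-Tc, -1.18 for mt-Te, -1.15 for mt-Tp and -1.05 for mt-Tm. They were -1.35 for mt-Rnr1 and -1.29 for mt-Rnr2. They were -1.03 for mt-Nd2 and mt-Nd6, -0.96 for mt-Nd1 and mt-Nd5, and -0.91 for mt-Cytb. Between D21 and D15 the effect differed for 5, all higher at D21: 1.06 for mt-Nd1, 1.02 for mt-Nd2, 0.96 for mt-Co1, 0.92 for mt-Nd6 and 0.91 for mt-Cytb. The second set includes the D21 EAM libraries, whose library code cannot be told apart from EAM at D21.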

How the results depend on the processing

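All falls are relative to the rest of each library. At D15, the 22 calls became 1 (mt-Co2, higher) with libraries scaled to the cardiomyocyte marker sum, 1 (mt-Tq, lower) with the mt-mRNA sum, and 0 with the sum of the 5 mt-mRNAs outside the copied stretch, a scaling chosen after seeing the data that brings those genes to about 0 by construction. With total counts 19 of the 22 calls were kept, and mt-Cytb, mt-Nd1 and mt-Ty were lost. With cardiomyocyte markers mt-Nd1 turned to 0.17, mt-Nd2 to 0.085, mt-Nd5 to 0.0187, mt-Nd6 to 0.13, mt-Cytb to 0.24 and mt-Tp to 0.00875, and with the 5-gene sum mt-Nd1 turned to 0.0404, mt-Nd6 to 0.00106 and mt-Cytb to 0.12. The median of the 13 mRNAs moved from -0.908 to 0.448 at D15 and from -0.217 to 0.0433 at D10 with cardiomyocyte markers, and at D15 to -1.15 over the 5 outside genes and -1.12 over 7. With 5 genes, the EAM minus control difference in log2 ratio to nuclear subunits moved from 0.186 to -0.0167 at D15. At D21 it moved from 0.0693 to -0.0745. The difference in log2 ratio to cardiomyocyte markers moved from 0.323 to 0.12 at D15 and from 0.275 to 0.131 at D21.

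At D21 the 2 calls became 0 with cardiomyocyte markers, the mt-mRNA sum or the 5-gene sum, 4 in the fit of all 24 hearts, and 10 at an FDR under 0.05 with no fold limit. At an FDR under 0.01 with no fold limit, DESeq2 and the likelihood ratio test each gave 9 in place of 3. For the D21 effect minus that at D15, the 2 calls became 4 with DESeq2, 6 with the likelihood ratio test, 1 with RLE factors, 1 with no filter and 0 with total counts. With the replicate number as a block, all 22 calls at D15 were kept, 1 of 2 at D21, and D10 had 0. Same-numbered hearts correlated at -0.0827 to 0.368 at D10, -0.0955 to 0.0351 at D15 and 0.0966 to 0.303 at D21, and 4, 0 and 7 of 8 hearts correlated best with their own number. The labels do not say what a number marks, and correlations over 0.1 were found in 2, 0 and 3 of 4 pairs, short of all pairs at each time, so the numbers were not taken as pairs. At D21, where all 4 correlations were above 0, this leaves a hint of pairing from the data, and the block there dropped mt-Ts2.

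Leaving out 1 heart gave 0 to 0 calls at D10, 18 to 22 at D15, 0 to 6 at D21 (0 without any control or EAM heart 1 or 2, 6 without EAM heart 3), 11 to 23 for D15 minus D10, 0 to 15 for D21 minus D15 (15 without D15 EAM heart 3), and 0 among controls, all counted with the fold limit. It gave medians of the 13 mRNAs of -0.398 to -0.0193 at D10, -0.971 to -0.787 at D15 and -0.161 to 0.11 at D21. Differences in log2 mt share were -0.218 to -0.101, -0.977 to -0.832 and -0.292 to -0.029 at the 3 times. Log2 ratios to nuclear subunits differed by -0.137 to -0.0316, 0.125 to 0.245 and -0.00156 to 0.153, and those to cardiomyocyte markers by -0.066 to 0.0785, 0.18 to 0.441 and 0.182 to 0.332. Where results moved and no construction is named, the cause was not tested.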

Other observations

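Marker lists of other cell types had these summed levels, each as its range over the 4 controls and then over the 4 EAM hearts of a time. At D10 they were, for leucocyte markers 317 to 551 CPM and 445 to 2278 CPM, macrophage and monocyte markers 769.9 to 1535 CPM and 1224 to 3383 CPM, T cell markers 17.5 to 21.3 CPM and 21.7 to 58.4 CPM, B cell markers 3.93 to 7.65 CPM and 4.87 to 7.83 CPM and neutrophil markers 124 to 263 CPM and 185 to 693 CPM. They were, for fibroblast markers 2379.9 to 4155 CPM and 3007 to 4839 CPM, endothelial markers 1442 to 1504 CPM and 1014 to 1497 CPM, erythroid markers 233 to 327 CPM and 196 to 416 CPM and adipocyte markers 31.2 to 38.2 CPM and 34.4 to 67.3 CPM. T cell markers lay wholly higher in D10 EAM hearts, and the other D10 ranges overlapped. At D21 they were, for leucocyte markers 244 to 387 CPM and 651 to 2766 CPM, macrophage and monocyte markers 619 to 991 CPM and 1611 to 5259 CPM, T cell markers 14.1 to 17.1 CPM and 37.7 to 114 CPM, B cell markers 5.38 to 9.26 CPM and 14.8 to 30.4 CPM and neutrophil markers 9.68 to 118 CPM and 102 to 400.2 CPM. They were, for fibroblast markers 2619.6 to 3268 CPM and 5202 to 15262 CPM, endothelial markers 1506 to 1809.6 CPM and 942 to 1512 CPM, erythroid markers 98.8 to 285 CPM and 149 to 675 CPM and adipocyte markers 36.2 to 83.9 CPM and 13.3 to 29.5 CPM, and Lep and Ucp1 of the adipocyte list had no read in D21 EAM hearts. Arhgap30 of the leucocyte list had no read in D21 controls. Their part in the values of the mt genes was not tested.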
